A study of Mus musculus with 9 samples.

Results

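The small leucine-rich proteoglycans are secreted matrix proteins built around a curved stack of leucine-rich repeats, and most carry chondroitin, dermatan or keratan sulfate chains. They bind collagen fibrils and govern their spacing and width, and several also hold growth factors of the TGF-beta and BMP families in the matrix. They are known from cartilage, bone, tendon, skin, cornea and the meninges. The 10 genes described here are Bgn, Dcn and Aspn of class I, Fmod, Lum, Prelp, Omd and Kera of class II, and Ogn and Epyc of class III. They were taken by name, as every probe set that the array annotation assigns to 1 of these symbols alone. This gave 21 of the 45037 probe sets that were not controls, and 10 of 18193 named genes.

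RNA from floating sphere cultures at passage 3 was hybridised to Affymetrix mouse arrays. All spheres came from C57BL/6J embryos of embryonic day 12.5 and were grown with 20 ng/ml bFGF, 20 ng/ml EGF and heparin in serum-free medium. BMP NCSC were spheres from dorsal root ganglia (DRG), the sensory ganglia that neural crest forms, with 10 ng/ml BMP4 added to that medium. rNCSC were DRG spheres without BMP4, and SCSC were spinal cord spheres without BMP4, so BMP NCSC differed from SCSC in tissue as well as in BMP4. Each group had 3 arrays. Nothing in the labels ties the arrays of a group to different embryos or cultures. The p-values therefore measure only the spread between these arrays, which may be technical. Values are GCRMA expression on the log2 scale, on which 1 unit is a 2-fold difference, and the highest value on an array was 14.53 to 14.59. A sphere is a mixture of cells, and more cells of a type cannot be told apart from more RNA per cell.

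The rNCSC arrays carried spinal cord rather than crest markers, although the cells came from DRG; the labels call these cells reprogrammed. Olig2, a transcription factor of spinal cord progenitors, averaged 1.47 ± 0.149 in BMP NCSC, against 12.10 ± 0.0452 in rNCSC and 12.14 ± 0.101 in SCSC (SD, n = 3 each). Sox10, a crest and glial transcription factor, averaged 11.56 ± 0.222 in BMP NCSC, against 4.14 ± 0.168 in rNCSC and 4.05 ± 0.152 in SCSC. Several connective tissue markers were high in BMP NCSC. The summed level of the 9 cartilage markers (log2 of the sum) lay at 15.50 to 15.94 in BMP NCSC, against 8.77 to 9.40 in rNCSC and 9.06 to 9.18 in SCSC, and 6 of the 9 were called higher in BMP NCSC. Matn1 and Matn3 of that list were under 4 on every array. Sox9, the remaining marker, went the other way without a call. It averaged 7.96 ± 0.243 in BMP NCSC, against 8.73 ± 0.451 in rNCSC and 8.92 ± 0.0742 in SCSC. The 6 meningeal fibroblast markers summed to 12.79 to 13.34 in BMP NCSC, against 5.82 to 8.63 in rNCSC and 5.94 to 6.22 in SCSC. Of these, 4 were called higher than in rNCSC (Foxc1, Foxc2, Islr and Aldh1a2), and 3 higher than in SCSC. Aldh1a2 was called against rNCSC by 1.05 although it was under 4 on every array. Crabp2 was also under 4 on every array, without a call. Slc6a13 went the other way without a call, averaging 2.56 in BMP NCSC and 3.14 in rNCSC. The 4 tendon markers summed to 9.20 to 9.73 in BMP NCSC, against 5.32 to 5.36 in rNCSC and 5.23 to 5.25 in SCSC, with only Mkx called and Scx, Tnmd and Thbs4 under 4 on every array. Of smooth muscle markers 2 of 5 were called higher than in rNCSC, with Cnn1, Myh11 and Des under 4 on every array and sums of 10.34 to 12.74 in BMP NCSC, against 6.45 to 6.52 in rNCSC and 6.26 to 6.52 in SCSC. Of the bone markers measured, 1 of 4 was called higher and 1 lower, with Ibsp under 4 on every array and sums of 10.15 to 11.74 in BMP NCSC, against 6.05 to 6.27 in rNCSC and 6.26 to 6.29 in SCSC. Of endothelial markers 1 of 6 was called higher and 5 were under 4 on every array. The 5 markers of microglia and macrophages and the 4 of skeletal muscle were under 4 on all 9 arrays. The part of any such cells in the proteoglycan values was not tested.

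The sequences before the start sites of 5 members are shown, with 4 called higher in BMP NCSC and Kera not called. The windows of Prelp, Omd and Epyc are not printed, so the called gene with the smallest difference, Epyc, is left out. Each is the 250 bases before the annotated start, printed 5′ to 3′ on the gene's strand, from RefSeq on GRCm38.p6. Capitals mark 3 motifs on either strand. The motif TATAAA can form a core element that helps to place the start of transcription, and whether the matches here do so was not tested. The motif CAGAC is a core that SMAD proteins of the TGF-beta pathway can bind. The motif GGCGCC is one that SMAD proteins activated by BMP can bind. The Bgn window is chrX:73483351-73483600 on the plus strand, that of Fmod chr1:134037004-134037253 on the plus strand, that of Aspn chr13:49544193-49544442 on the plus strand, that of Ogn chr13:49607765-49608014 on the plus strand and that of Kera chr10:97606955-97607204 on the plus strand.
Bgn: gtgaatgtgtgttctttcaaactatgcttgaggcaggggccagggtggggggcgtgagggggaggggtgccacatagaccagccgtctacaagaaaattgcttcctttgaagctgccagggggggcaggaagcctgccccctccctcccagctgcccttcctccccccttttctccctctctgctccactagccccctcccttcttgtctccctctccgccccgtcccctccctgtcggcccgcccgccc
Fmod: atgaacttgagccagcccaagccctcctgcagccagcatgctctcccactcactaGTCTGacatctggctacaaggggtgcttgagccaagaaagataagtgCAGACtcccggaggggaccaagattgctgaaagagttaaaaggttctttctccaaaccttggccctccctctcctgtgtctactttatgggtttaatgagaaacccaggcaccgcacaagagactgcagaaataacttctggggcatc
Aspn: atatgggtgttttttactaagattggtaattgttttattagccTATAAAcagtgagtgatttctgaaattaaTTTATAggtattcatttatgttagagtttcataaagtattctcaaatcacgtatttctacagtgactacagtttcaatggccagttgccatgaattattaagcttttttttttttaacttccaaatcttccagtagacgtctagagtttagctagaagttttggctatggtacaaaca
Ogn: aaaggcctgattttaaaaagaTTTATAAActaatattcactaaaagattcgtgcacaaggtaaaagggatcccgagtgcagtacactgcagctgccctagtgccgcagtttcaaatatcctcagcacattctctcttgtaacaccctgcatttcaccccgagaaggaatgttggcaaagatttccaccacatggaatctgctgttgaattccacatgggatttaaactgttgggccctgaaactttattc
Kera: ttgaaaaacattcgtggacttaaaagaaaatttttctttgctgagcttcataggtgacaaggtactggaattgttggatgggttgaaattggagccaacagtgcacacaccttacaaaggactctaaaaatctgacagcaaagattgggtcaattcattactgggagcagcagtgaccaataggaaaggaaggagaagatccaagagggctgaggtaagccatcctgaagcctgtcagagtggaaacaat
RefSeq windows matched 8 of the 10 members, with 9 windows in all. TATAAA occurred in the Aspn window, 207 and 178 bases before the start, and in the Ogn window as overlapping matches on opposite strands at 229 and 227 bases. It was present in 12.3% of all 32536 distinct windows of this length. CAGAC occurred at 195 and 148 bases before the start of Fmod and at 161 bases before that of Prelp, and in 42.2% of all windows. GGCGCC was in none of the member windows and in 9.65% of all. The GC content was 64.4% for Bgn, 51.2% for Fmod, 42.4% for Kera, 42.0% for Ogn and 30.0% for Aspn, beside a median of 52.4% over all windows. A match is a run of letters and says nothing of binding.

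Of the 10 genes, 9 were high in BMP NCSC on at least 1 probe set, and all were close to the bottom of the scale in both other groups. All 21 probe sets lay between 2.02 and 3.96 on the 6 arrays of rNCSC and SCSC, and 45.9% of all probe sets were likewise under 4 on those arrays. In BMP NCSC, 19 of the 21 probe sets, which stand for 9 of the 10 genes, were called higher than in rNCSC, where 10.8% of all probe sets were called higher. None was called lower, where 10.7% of all were. A call means an adjusted p below 0.05 in limma, over all 45037 probe sets, and a log2 difference of at least 1. Against SCSC, 19 of 21 were again called higher, where 11.2% of all probe sets were, and none lower, where 11.6% were. Both comparisons use the same BMP NCSC arrays. The median difference of the 21 probe sets was 8.31 from rNCSC and 8.37 from SCSC, beside -0.06 and -0.04 over all probe sets. The 3 BMP NCSC arrays lay wholly above those of rNCSC for 19 of the 21, as for 23.8% of all probe sets, and above those of SCSC for 19, as for 25.0%.

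**Figure D1:**
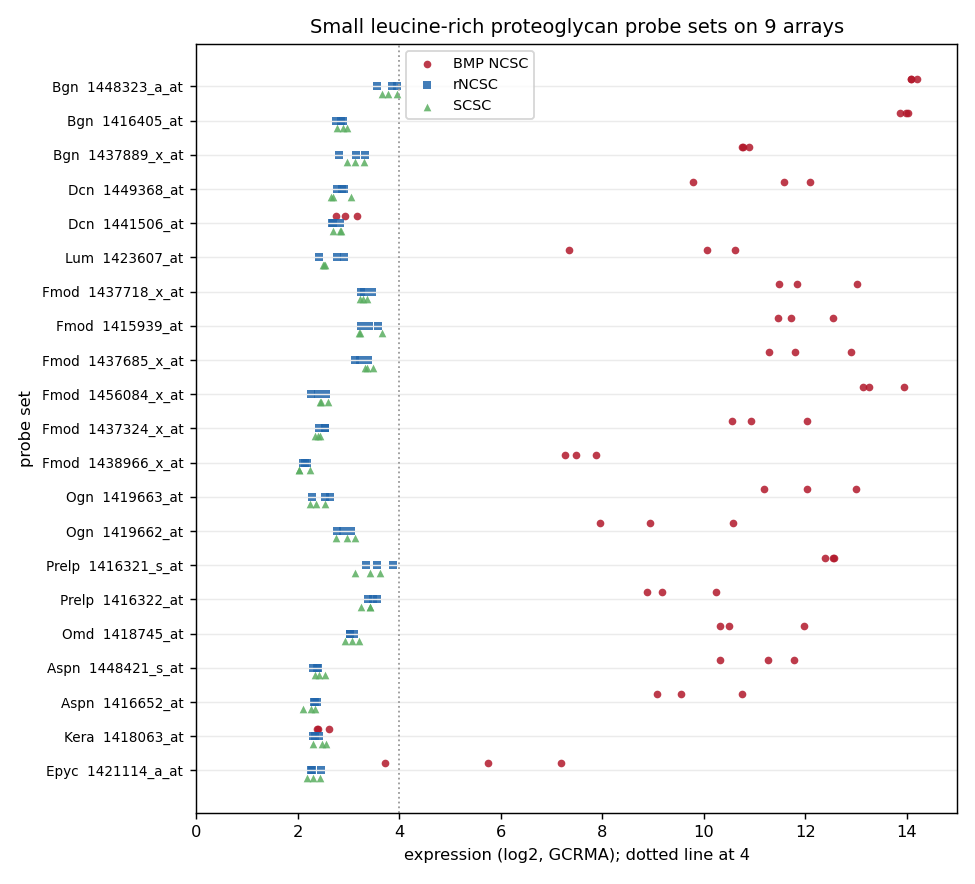
Expression (log2, GCRMA, horizontal axis) of the 21 member probe sets (rows) on each array, with BMP NCSC as red circles, rNCSC as blue squares and SCSC as green triangles. The rNCSC and SCSC points lie between 2.02 and 3.96, left of the dotted line at 4, and the BMP NCSC points lie to their right in all rows but those of Kera and Dcn 1441506_at.

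The contrast was sharper than for most genes on the array. For 18 of the 21 probe sets, all rNCSC and SCSC values were under 4 and all BMP NCSC values at least 5, which held for 724 of all 45037, or 1.61%. With a limit of 9 in BMP NCSC it held for 14 of the 21, from 7 genes, and for 148 of all probe sets, or 0.329%. Those 18 are also the members that pass a filter of at least 5 on at least 3 arrays. They could pass it only through BMP NCSC. Because the rNCSC and SCSC means were under 4, the size of each difference is uncertain: GCRMA draws low signals together.

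Among the class I genes, Bgn encodes biglycan, a proteoglycan of bone and cartilage that binds collagen and growth factors. Its probe set 1448323_a_at read 14.20, 14.08 and 14.09 in BMP NCSC, against 3.96, 3.56 and 3.87 in rNCSC and 3.66, 3.79 and 3.96 in SCSC. The groups were far apart and the BMP NCSC arrays close to each other. The difference was 10.33 (SE 0.122, adjusted p = 7.1e-11) from rNCSC and 10.32 (adjusted p = 7e-11) from SCSC in limma. The other Bgn probe sets were also called, with differences from rNCSC of 11.13 (SE 0.0862) for 1416405_at and 7.71 (SE 0.138) for 1437889_x_at. The name of the latter ends in x_at, so it may cross-hybridise with other transcripts. The BMP NCSC values of 1448323_a_at lay near the arrays' maximum of 14.53 to 14.59, and the part of signal saturation in their small spread was not tested.

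Dcn encodes decorin, which binds collagen type I and II fibrils and TGF-beta. Its probe set 1449368_at read 12.10, 9.80 and 11.59 in BMP NCSC, against 2.91, 2.78 and 2.87 in rNCSC and 2.65, 2.70 and 3.05 in SCSC. All BMP NCSC arrays were above all others, with array 2 lowest. The difference was 8.31 (SE 0.481, adjusted p = 8.4e-07) from rNCSC and 8.37 (adjusted p = 7.4e-07) from SCSC. The other Dcn probe set, 1441506_at, disagreed: it read 3.17, 2.76 and 2.93 in BMP NCSC, against 2.83, 2.68 and 2.69 in rNCSC and 2.70, 2.85 and 2.83 in SCSC. Its groups overlapped, and its difference from rNCSC was 0.22 (95% confidence interval -0.03 to 0.47, adjusted p = 0.14). It was under 4 on every array.

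Aspn encodes asporin, a class I member without the usual chondroitin or dermatan sulfate chain, which binds collagen and TGF-beta. Its probe set 1448421_s_at read 11.78, 10.32 and 11.26 in BMP NCSC, against 2.39, 2.40 and 2.31 in rNCSC and 2.42, 2.55 and 2.34 in SCSC. The BMP NCSC arrays stood apart from the others and array 2 was lowest among them. The difference was 8.75 (SE 0.297, adjusted p = 2.7e-08) from rNCSC and 8.69 from SCSC. Probe set 1416652_at, with 10.75, 9.09 and 9.55 in BMP NCSC, differed from rNCSC by 7.44 (SE 0.340, adjusted p = 1.8e-07).

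Among the class II genes, Fmod encodes fibromodulin, a keratan sulfate proteoglycan that binds fibrillar collagen in cartilage and tendon. It had 6 probe sets, all called higher in BMP NCSC, with differences from rNCSC of 5.40 to 11.03. The 5 whose names end in x_at may cross-hybridise with other transcripts. Probe set 1415939_at, which is not of that kind, read 11.72, 11.47 and 12.54 in BMP NCSC, against 3.41, 3.25 and 3.58 in rNCSC and 3.23, 3.22 and 3.66 in SCSC. Array 3 was highest here, as for all 6 Fmod probe sets. The difference was 8.49 (SE 0.255, adjusted p = 1.2e-08) from rNCSC and 8.53 from SCSC.

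Lum encodes lumican, a keratan sulfate proteoglycan best known from cornea, where it orders the collagen lattice. Probe set 1423607_at read 10.62, 7.35 and 10.06 in BMP NCSC, against 2.77, 2.42 and 2.91 in rNCSC and 2.51, 2.52 and 2.55 in SCSC. The groups did not overlap, but BMP NCSC array 2 was far below the other BMP NCSC arrays. The difference was 6.64 (SE 0.688, 95% confidence interval 5.08 to 8.20, adjusted p = 3.9e-05) from rNCSC and 6.82 (adjusted p = 3e-05) from SCSC.

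Prelp encodes a heparin-binding member with a basic amino-terminal region that links basement membrane proteoglycans to collagen. Probe set 1416321_s_at read 12.39, 12.54 and 12.57 in BMP NCSC, against 3.56, 3.34 and 3.88 in rNCSC and 3.62, 3.43 and 3.13 in SCSC. The BMP NCSC arrays were close to each other and far above the rest. The difference was 8.91 (SE 0.160, adjusted p = 6.6e-10) from rNCSC and 9.11 from SCSC. Probe set 1416322_at read 8.89, 9.18 and 10.25 in BMP NCSC, and differed from rNCSC by 5.96 (SE 0.290, adjusted p = 2.7e-07).

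Omd encodes osteomodulin, a keratan sulfate proteoglycan of mineralised matrix. Probe set 1418745_at read 11.98, 10.49 and 10.32 in BMP NCSC, against 3.04, 3.12 and 3.04 in rNCSC and 3.07, 2.94 and 3.21 in SCSC. Array 1 was the highest of BMP NCSC and the groups did not overlap. The difference was 7.86 from both rNCSC (SE 0.363, adjusted p = 1.9e-07) and SCSC (adjusted p = 1.8e-07). Kera encodes keratocan, a proteoglycan largely restricted to the cornea, and was the 1 member gene not called. Probe set 1418063_at read 2.38, 2.41 and 2.62 in BMP NCSC, against 2.35, 2.31 and 2.42 in rNCSC and 2.30, 2.48 and 2.57 in SCSC. The groups overlapped at the lower end of the scale. The difference was 0.11 (95% confidence interval -0.12 to 0.33, adjusted p = 0.42) from rNCSC and 0.02 (-0.21 to 0.24, adjusted p = 0.90) from SCSC.

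Among the class III genes, Ogn encodes osteoglycin, also called mimecan, a small member found in bone, cartilage, cornea and meninges. Probe set 1419663_at read 13.0, 11.19 and 12.03 in BMP NCSC, against 2.55, 2.28 and 2.63 in rNCSC and 2.55, 2.37 and 2.25 in SCSC. Array 2 was again lowest of BMP NCSC, and the groups were well apart. The difference was 9.59 (SE 0.368, adjusted p = 6e-08) from rNCSC and 9.68 (adjusted p = 5.4e-08) from SCSC. Probe set 1419662_at, with 10.58, 7.95 and 8.94 in BMP NCSC, differed from rNCSC by 6.24 (SE 0.527, adjusted p = 9.9e-06).

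Epyc encodes epiphycan, a dermatan sulfate proteoglycan of growth plate cartilage, and had the smallest difference of the genes called. Probe set 1421114_a_at read 7.19, 3.73 and 5.76 in BMP NCSC, against 2.46, 2.28 and 2.27 in rNCSC and 2.19, 2.44 and 2.30 in SCSC. The groups did not overlap, although BMP NCSC array 2 was itself under 4. The difference was 3.22 (SE 0.680, 95% confidence interval 1.68 to 4.76, adjusted p = 0.0035) from rNCSC and 3.25 (adjusted p = 0.0032) from SCSC. With values under 4 set to 4 the difference from rNCSC was 1.65 and the call was lost (limma adjusted p = 0.16), as it was against SCSC.

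rNCSC and SCSC were compared in the same medium, so this comparison concerns the tissue of origin. None of the 21 probe sets was called in either direction. Over all probe sets 0.0% were called higher in rNCSC and 0.00222% lower, which is 1 probe set, or 0.0055% when each gene has 1 probe set, while 4340 had an unadjusted p below 0.05 and none of the 21 did (limma). The member differences, rNCSC minus SCSC, ran from -0.14 to 0.20 with adjusted p of 0.789 to 0.998. The 95% confidence intervals of these differences reached from -1.51 to 1.73 over the members. The narrower interval of Bgn 1416405_at ran from -0.24 to 0.15. The fit pools the spread over all 9 arrays, so the wide spread of many members within BMP NCSC enters these intervals and p-values. For Lum the SE was 0.688, beside SDs of 0.255 in rNCSC and 0.0226 in SCSC. Fitted on the 6 arrays of these groups alone, none of the 21 was called either. At values under 4 a difference in low expression may not be detectable.

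Within BMP NCSC the members varied more between arrays than most probe sets did. Of the 17771 probe sets with a BMP NCSC mean of at least 5, the median range over the 3 arrays was 0.31 and 7.14% ranged over at least 1. The 19 member probe sets with such a mean had a median range of 1.48, from 0.12 for Bgn to 3.46 for Epyc, and 13 of the 19, or 68.4%, ranged over at least 1. A wide range was also common among the 885 probe sets that were under 4 on all rNCSC and SCSC arrays, with a median of 0.82 and 41.8% over at least 1. All 3 Bgn probe sets and Prelp 1416321_s_at were steady, while Prelp 1416322_at ranged over 1.36. Lum, Dcn 1449368_at, Epyc and all Ogn, Aspn and Fmod probe sets were lowest on BMP NCSC array 2. For every Fmod probe set arrays 1 and 2 lay closer to each other than to array 3, as with 11.72, 11.47 and 12.54 for 1415939_at. Of the 19 probe sets 14, or 73.7%, were lowest on array 2, where Fmod counts more than once. The share was 28.9% of the 17771 probe sets and 30.1% of the 885. Bgn 1448323_a_at was among the 14 by a small margin, while its other 2 probe sets were lowest on array 3, as was Omd. Without array 2 the difference from rNCSC was 7.64 for Lum, 8.99 for Dcn and 4.14 for Epyc, and without array 1 it was 6.00 for Lum, 7.84 for Dcn and 2.41 for Epyc. Bgn moved between 10.21 and 10.41 when each array was left out in turn.

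**Figure D2:**
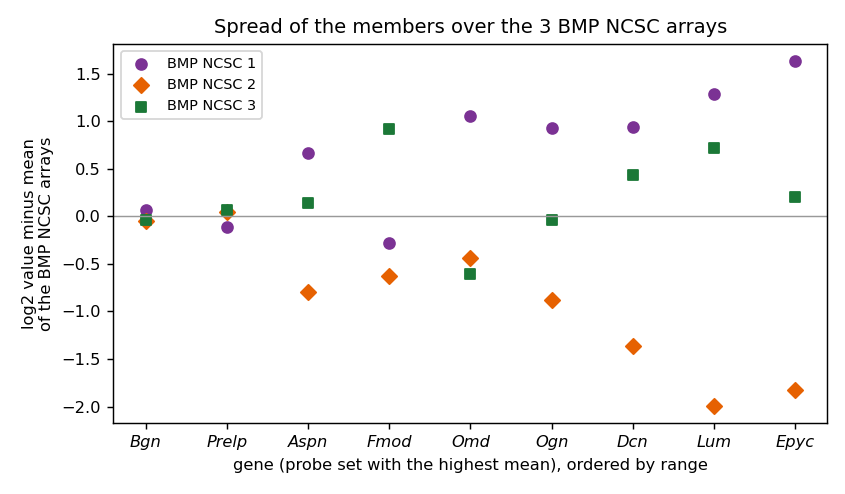
Log2 value minus the mean of the 3 BMP NCSC arrays (vertical axis) for the 9 member genes with a BMP NCSC mean of at least 5, each by its probe set with the highest mean and ordered by range. Circles are array 1, diamonds array 2 and squares array 3; Bgn ranges over 0.12 and Epyc over 3.46, and array 2 is lowest for 7 of the 9 probe sets drawn, for Bgn by a small margin.

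The genes nearest in pattern to Bgn and to Dcn were taken as the 3 non-member genes with the smallest root mean square difference of values centred over the 9 arrays. For Bgn they were Mgp (0.132), which encodes matrix Gla protein, an inhibitor of calcification, then Cytl1 (0.202), a secreted protein of cartilage, and Anxa1 (0.215), a phospholipid-binding protein. Mgp read 13.92, 13.74 and 13.71 in BMP NCSC, against 3.27, 3.17 and 3.62 in rNCSC and 3.25, 3.31 and 3.39 in SCSC. Like Bgn, it was steady and high in BMP NCSC. For Dcn they were Hapln1 (0.291), the link protein that ties aggrecan to hyaluronan, then Fgf7 (0.383), a growth factor made by mesenchymal cells, and Pdgfrb (0.39), a PDGF receptor. Hapln1 read 11.74, 9.72 and 11.80 in BMP NCSC, against 2.18, 2.0 and 2.53 in rNCSC and 2.38, 2.35 and 2.47 in SCSC. Its lowest BMP NCSC array was array 2, as for Dcn. These likenesses are descriptive and mostly carry the difference between groups.

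In the mouse genome the members lie in groups. By protein-coding gene order in the RefSeq table of assembly GRCm38.p6, Dcn, Lum, Kera and Epyc are consecutive on chromosome 10, Aspn, Omd and Ogn on chromosome 13, and Prelp and Fmod on chromosome 1, with Bgn on the X chromosome. Within the chromosome 10 group the differences from rNCSC were 8.31 for Dcn, 6.64 for Lum, 0.11 for Kera and 3.22 for Epyc, so Kera was not called between called genes. Of 15 measured flanking genes, taken up to 2 genes to each side, 1 was called higher and 2 were called lower in BMP NCSC, beside 14.4% and 12.6% of all genes, so these counts do not stand apart from the background. Ecm2, a leucine-rich matrix gene beside Aspn, differed by 0.42 (adjusted p = 0.084), and Optc, an eye proteoglycan gene beside Prelp, by -0.17 (adjusted p = 0.24). Nol8 beside Ogn differed by -0.74 (adjusted p = 0.0049) and Btg2 beside Fmod by -0.25 (adjusted p = 0.43), both under the size limit. Btg1, an antiproliferative gene on the Dcn side of chromosome 10, was called higher by 1.03 (adjusted p = 0.00024). Cenpp, a centromere protein gene whose span holds chromosome 13 members, averaged 5.78 in BMP NCSC against 9.03 in rNCSC and was called lower by -3.25 (adjusted p = 1.7e-06). Haus7, a spindle gene beside Bgn, was called lower by -1.22 (adjusted p = 0.00023).

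**Figure D3:**
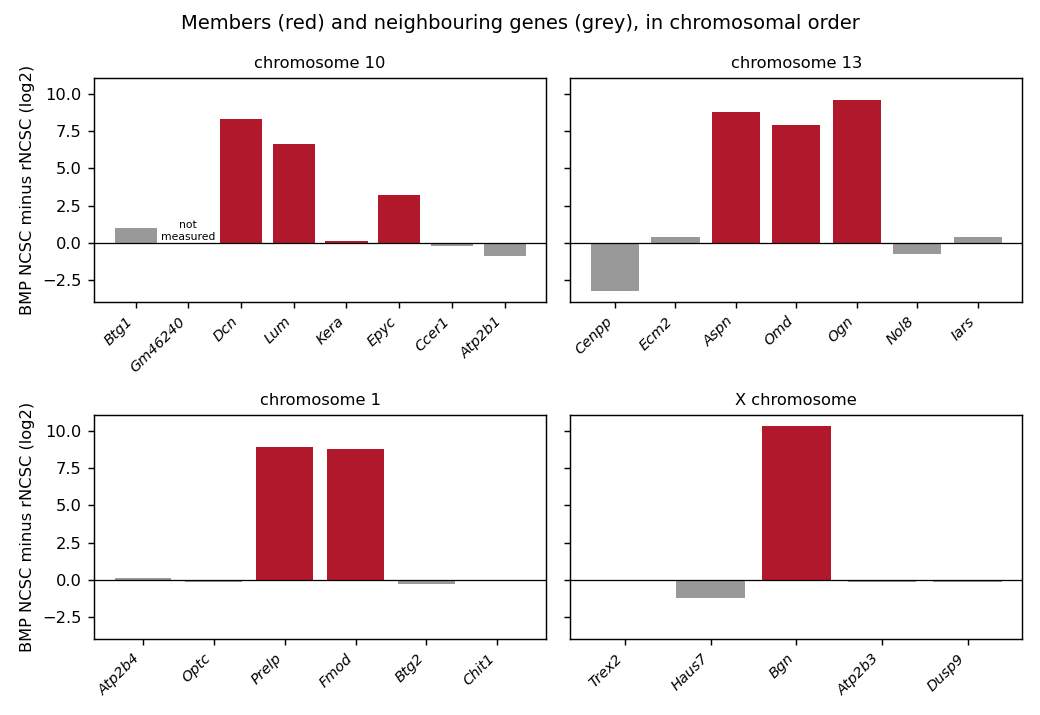
BMP NCSC minus rNCSC (log2, vertical axis) for the member genes (red bars) and their protein-coding neighbours (grey bars) in chromosomal order on chromosomes 10, 13, 1 and X, 1 probe set per gene. Member bars other than Kera run from 3.22 to 10.33, while the neighbours run from -3.25 for Cenpp to 1.03 for Btg1.

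Other leucine-rich matrix genes of the family mostly stayed low. Of the 6 measured, 1 was called higher in BMP NCSC than in rNCSC and none lower, beside 14.4% and 12.6% of all genes at 1 probe set each, and the median difference was 0.25 beside -0.04 over all genes. The gene called was Chadl, which encodes a chondroadherin-like cartilage protein. It read 8.46, 8.60 and 8.32 in BMP NCSC, against 3.64, 3.86 and 4.0 in rNCSC and 3.77, 3.83 and 4.05 in SCSC, a difference from rNCSC of 4.63 (SE 0.125, adjusted p = 6.5e-09). Podn, podocan, averaged 4.35 ± 0.0709 in BMP NCSC and 3.75 ± 0.0692 in rNCSC, which differ by 0.60 (adjusted p = 0.00019), too little for a call. Optc, Ecm2, Chad and Nyx were under 4 on every array.

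The collagens that these proteoglycans bind were high in BMP NCSC as well. Of 16 fibrillar and fibril-associated collagen genes, 15 were called higher than in rNCSC and none lower, with a median difference of 5.88. Over all genes 14.4% were called higher and 12.6% lower. Col2a1, the main collagen of cartilage, averaged 14.17 ± 0.117 in BMP NCSC and 3.18 ± 0.0901 in rNCSC. Col14a1, which coats fibril surfaces, averaged 12.58 ± 0.515 in BMP NCSC and 2.82 ± 0.148 in rNCSC, and Col3a1 averaged 12.31 ± 0.264 and 2.78 ± 0.183 in those groups. The chains of type I collagen, the main collagen of bone and tendon, were low: Col1a1 read 3.82, 3.75 and 4.78 in BMP NCSC, against 2.80, 2.61 and 2.94 in rNCSC. Its difference was 1.33 (adjusted p = 0.0018). Col1a2 averaged 3.50 ± 0.126 in BMP NCSC and 3.30 ± 0.0822 in rNCSC and was not called (difference 0.20, adjusted p = 0.26). Both type I genes were picked for mention after their values were seen.

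Of 17 other binding partners and receptors, 14 were called higher and 1 lower in BMP NCSC than in rNCSC, with a median difference of 1.67. The shares of all genes were 14.4% and 12.6%. Some calls lay low on the scale, and 4 of the 17 were under 5 on every array. Among these 4, Met averaged 3.66 ± 0.766 and Tgfb1 4.48 ± 0.305 in BMP NCSC, and both were called higher. Thbs1, thrombospondin 1, differed by 7.84 (SE 0.211, adjusted p = 6.5e-09) and Fn1, fibronectin, by 6.77 (SE 0.279, adjusted p = 9.2e-08). Egfr, the EGF receptor, which decorin can bind, was the gene called lower. It averaged 4.40 ± 0.5 in BMP NCSC and 11.27 ± 0.484 in rNCSC, a difference of -6.87 (SE 0.278, adjusted p = 8.3e-08).

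Of 10 proteases and enhancers that act on these proteoglycans or on procollagen, 5 were called higher and none lower, with a median difference of 2.64. The shares of all genes were 14.4% higher and 12.6% lower. Mmp2, a gelatinase, read 12.63, 12.55 and 12.60 in BMP NCSC, against 2.77, 3.53 and 5.65 in rNCSC. Pcolce, an enhancer of procollagen cleavage, read 12.51, 11.97 and 13.06 in BMP NCSC, against 5.32, 4.07 and 7.88 in rNCSC. For both genes rNCSC array 3 was the highest of its group, while every proteoglycan member was under 4 on that array. Mmp14, a membrane-bound protease, differed by 6.52 (SE 0.185, adjusted p = 9.1e-09).

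The enzymes that build the sugar chains were tested as separate lists. Of 22 measured genes for the linkage region and for chondroitin and dermatan sulfate, 14 were called higher and 1 lower in BMP NCSC than in rNCSC, with a median difference of 1.80. Dse, the epimerase that turns chondroitin into dermatan sulfate, averaged 9.95 ± 0.499 in BMP NCSC and 4.51 ± 0.204 in rNCSC. Chsy3, a chondroitin synthase, averaged 8.77 ± 0.444 in BMP NCSC and 3.33 ± 0.465 in rNCSC, and Chst15, a sulfotransferase, 6.55 ± 0.509 and 3.30 ± 0.0715 in those groups. The gene called lower was Chst7, another sulfotransferase, at 7.39 ± 0.439 in BMP NCSC and 10.50 ± 0.301 in rNCSC. Of 8 keratan sulfate genes, 2 were called higher, B3gnt2 by 5.95 (SE 0.334) and B4galt1 by 4.14 (SE 0.156), and 1 lower, Fut8 by -1.48 (SE 0.247), with a median difference of 0.37. Beside 14.4% and 12.6% of all genes, these keratan sulfate counts are close to the background. The 14 higher calls among 22 genes on the chondroitin and dermatan sulfate list are above it. Against SCSC the counts of higher and lower calls were 15 and 0 for the collagens, 13 and 1 for the other partners, 5 and 0 for the proteases, 14 and 1 for the chondroitin and dermatan sulfate list, and 2 and 0 for the keratan sulfate list, beside 14.5% and 14.2% of all genes.

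**Figure D4:**
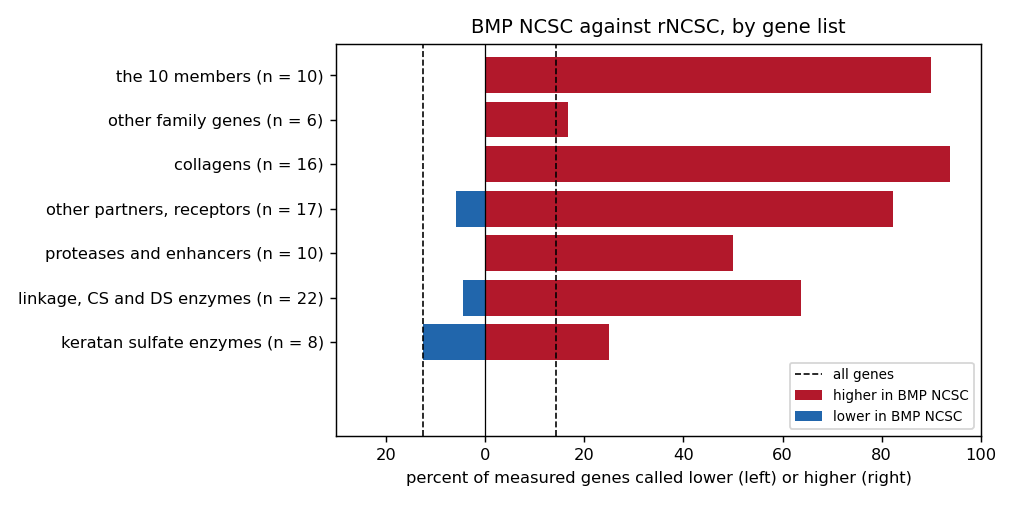
Percent of the measured genes of each list called higher (red, to the right) or lower (blue, to the left) in BMP NCSC against rNCSC, 1 probe set per gene. Dashed lines mark all genes, with 14.4% higher and 12.6% lower; 9 of 10 members and 15 of 16 collagens were called higher.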

How the data were processed

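Each of 9 arrays was put in its group by its title, 3 per group. The authors deposited log2 values for each probe set, which the submitters' processing notes credit to GCRMA (version not given in the sources used here). This method subtracts a background modelled on probe sequence and gives all arrays a like distribution, which hides any change in total RNA per cell. Array medians lay between 3.98 and 4.03, and precision is limited by the 3 arrays per group.

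Of 45101 probe sets, 64 were controls. In the platform annotation 34945 of the rest had 1 gene symbol, 932 had several and 9160 were unlisted. No low-value filter was applied. limma 3.58.1 in R 4.3.3 fitted group means over all 9 arrays, with 6 residual degrees of freedom and 2.89 added by variance moderation. Its p-values are two-sided and were adjusted by Benjamini-Hochberg over 45037 probe sets, and the procedure was tested on simulated data. In lists a gene is represented by its brightest probe set, averaged over all arrays.

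Genes named were all members, the other family genes, up to 3 genes per list with the largest called difference from rNCSC and no overlap, and the 3 genes most like Bgn and Dcn. Some markers and list genes, such as Sox9, Dmp1, Alpl, Met and Tgfb1, were named after their values were seen. The members and lists were chosen with earlier results of these data known. Alternatives were other limma settings, a low-value filter, a floor of 4, no size limit, a threshold of 0.01, 6 arrays only, a replicate block and leaving out each array.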

Additional observations from a re-analysis of the deposited data

How the results depend on the processing

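The count of member probe sets called higher in BMP NCSC stayed at 19 against rNCSC and at 19 against SCSC when each array was left out in turn (19 to 19). It was 18 with values under 4 set to 4, where Epyc lost its call in both comparisons, and 18 of 18 tested with a filter of at least 5 on at least 3 arrays. With that filter and 1 probe set per gene it was 8 of 8 tested in both comparisons. Members pass that filter only through BMP NCSC, which fixes their direction, so both filtered counts give no separate support. Of 1023 member differences over all settings, 1021 stayed on their side of the threshold, 2 lost the call (Epyc), and 0 called values changed sign. The 1023 include those of both filtered settings, which give no separate support. They also include those under a stricter limit on adjusted p, which kept the differences and p-values of the main fit. The 1023 are therefore not all separate checks. Among the uncalled values 19 changed sign, 17 of them in rNCSC against SCSC.

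The groups share replicate numbers, and no label says that a number marks a shared culture or day. Deviations of same-numbered arrays correlated above 0 in 9 of 9 pairs between groups (0.054 to 0.352), a hint of shared structure from the data. Those of different-numbered arrays correlated below 0 in 15 of 18 pairs (-0.338 to 0.21). Each group was centred on its own mean, so these negative values largely follow from the positive ones and are no separate evidence. Since 3 of the 9 were under 0.1, and BMP NCSC 2 correlated more with SCSC 1 (0.21) than with SCSC 2 (0.183), the arrays were not treated as paired. With a replicate block 19 members were called higher against rNCSC and 19 against SCSC.

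Over all probe sets, dropping the size limit gave 9437 higher and 11355 lower in BMP NCSC than in rNCSC, beside 4883 and 4810, and 9693 and 11613 against SCSC, beside 5036 and 5207. With the filter and 1 probe set per gene there were 2335 and 2197 of 10319 against rNCSC, and 2366 and 2473 against SCSC. In rNCSC against SCSC, leaving out rNCSC 2 gave 37 higher and 68 lower, limma with trend and robust gave 2 and 4, and the replicate block gave 0 and 0.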

Other observations

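Mmp13, which encodes a collagenase of hypertrophic cartilage and was singled out after its values were seen, read 3.70, 3.05 and 9.71 in BMP NCSC, against 1.84, 1.84 and 1.94 in rNCSC and 1.64, 1.95 and 1.72 in SCSC. It was high on BMP NCSC array 3 alone, and its difference from rNCSC of 3.61 was not called (limma adjusted p = 0.067). Fmod was also highest on that array, at 12.54 for probe set 1415939_at.

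Acta2, an actin of smooth muscle and myofibroblasts, read 12.45, 12.0 and 10.08 in BMP NCSC, against 5.66, 5.59 and 5.57 in rNCSC. It was lowest on array 3. Of the 19 member probe sets with a BMP NCSC mean of at least 5, 3 were lowest on array 3 and 14 on array 2. Those lowest on array 3 were Omd and 2 of Bgn, by small margins, with Omd at 10.32 on array 3 and 10.49 on array 2.

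Foxc1, a transcription factor of meninges and other mesenchyme, read 10.09, 10.04 and 9.17 in BMP NCSC, against 6.04, 4.65 and 8.45 in rNCSC. The rNCSC array 3 was highest of its group, and all members were under 4 on it.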
